A study of Chlorocebus sabaeus with 4 samples.

Results

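CYP17A1, INSL3 and CYB5A are 3 genes known for their expression in theca cells, the androgen-making layer around the ovarian follicle, and they were chosen by name from earlier results of the same arrays. The platform annotation gave them 9 probe sets, 2 for CYP17A1, 3 for INSL3 and 4 for CYB5A, among 41091 probe sets with a single gene symbol that named 19775 genes. Because the changes within each animal were used to choose the genes, those changes are given as a description with no test. RNA came from frozen corpus luteum, which the ovulated follicle turns into, of 2 adult female vervets (Chlorocebus sabaeus), each 16 years old and kept in a research colony. Monkey 1031 was under calorie restriction and monkey 1030 was fed ad libitum, and no other treatment is named in the labels. Each gave samples 1 and 2, so that the effect of weight change could be read within an animal, and each sample was measured on 1 array. With 1 animal on each diet, diet and animal cannot be told apart, and the labels do not give the order in which samples 1 and 2 were collected. Changes are given as sample 2 minus sample 1 on the log2 scale, and "higher" and "lower" within an animal mean 2-fold or more, which is a threshold on size without a test.

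After ovulation, cells of the theca layer enter the corpus luteum alongside those of the granulosa, and in primates they are held to be its main source of androgen precursors, which granulosa-derived cells turn into estrogen. CYP17A1 is the P450 enzyme that hydroxylates pregnenolone and progesterone and then cleaves their side chain to give androgens. CYB5A, a small haem protein of the endoplasmic reticulum, stimulates that cleavage step, and INSL3 is a secreted peptide of the relaxin and insulin family that theca cells and the Leydig cells of the testis release.

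The arrays hold human probe sets, and a mismatch with the vervet sequence can lower a signal, so levels are compared only within a probe set. Median signal over all probe sets lay between log2 3.96 and 4.00 in the 4 samples. Sample 2 of the ad libitum animal lay far from the others, with 1587 to 1768 probe sets at least 2-fold apart in each pairing, while pairs among the other 3 differed in 204 to 584. The mean of 18 bacterial hybridisation controls was 10.54 in sample 2 and 10.09 in sample 1 of the calorie restriction animal, and 9.85 in sample 2 and 10.58 in sample 1 of the ad libitum animal. These controls were high where CYP17A1 and INSL3 were low within each animal, and their part in the results below was not tested. The difference between 3' and 5' probe sets of beta-actin was 1.73 and 1.48 in samples 2 and 1 of the calorie restriction animal and 1.65 and 1.61 in those of the ad libitum animal.

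CYP17A1 was low in 1 of the 4 samples. Its probe set 205502_at read log2 5.63 in sample 2 and 8.89 in sample 1 of the calorie restriction animal, a change of -3.26 or 9.57-fold lower. The same probe set read 10.76 in sample 2 and 9.57 in sample 1 of the ad libitum animal, a change of 1.19 or 2.28-fold higher. Sample 2 of the calorie restriction animal was thus the lowest and sample 2 of the ad libitum animal the highest, with both samples numbered 1 between them. In terms of all probe sets with a single gene symbol, 205502_at stood at percentile 69.0 in sample 2 and 95.0 in sample 1 of the calorie restriction animal. Its percentiles were 99.1 in sample 2 and 97.0 in sample 1 of the ad libitum animal. Among the 20546 probe sets whose mean signal reached log2 4.34, the median of such means, called the level filter below, its change ranked first from the bottom in the calorie restriction animal and 253 from the top in the ad libitum animal. The second probe set, 1562573_at, read between 1.87 and 1.97 in all 4 samples, at percentiles 0.92 to 2.11, and differed by -0.06 in the calorie restriction and 0.04 in the ad libitum animal. It thus lay at the floor of the array throughout, and every statement on CYP17A1 rests on 205502_at.

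INSL3 showed the same pair of directions on each of its 3 probe sets. The brightest, 1553594_a_at, read 7.52 in sample 2 and 9.51 in sample 1 of the calorie restriction animal, and 11.83 in sample 2 and 9.18 in sample 1 of the ad libitum animal. Probe set 214400_at read 6.06 and 8.72 in samples 2 and 1 of the calorie restriction animal and 11.21 and 8.67 in those of the ad libitum animal. Probe set 214572_s_at read 5.35 and 8.60 in samples 2 and 1 of the calorie restriction animal and 10.54 and 8.37 in those of the ad libitum animal. On each probe set the samples numbered 1 of both animals lay close together, and the samples numbered 2 lay on opposite sides of them.

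The size of the INSL3 change depended on the probe set. In the calorie restriction animal the changes were -1.997 on 1553594_a_at, -2.67 on 214400_at and -3.25 on 214572_s_at, or 3.99-fold, 6.34-fold and 9.51-fold lower. In the ad libitum animal they were 2.66, 2.54 and 2.17 in the same order of probe sets, or 6.31-fold, 5.82-fold and 4.49-fold higher. The spread over probe sets was 1.25 in the calorie restriction animal and 0.49 in the ad libitum animal, and the brightest probe set had the smallest change in the calorie restriction animal and the largest in the ad libitum animal. These probe sets read the same RNA samples on the same arrays, so their spread says nothing of the spread between animals. The cause of their spread was not tested.

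CYB5A did not share that pattern. Its brightest probe set, 209366_x_at, read 10.25 in sample 2 and 10.04 in sample 1 of the calorie restriction animal, and 10.69 in sample 2 and 11.11 in sample 1 of the ad libitum animal. Its changes over the 4 probe sets ran from 0.08 to 0.25 in the calorie restriction animal and from -0.76 to -0.34 in the ad libitum animal, so that none reached 2-fold and every sign was the reverse of those of CYP17A1 and INSL3. The lowest changes in the ad libitum animal were on the dimmer probe sets, -0.56 on 215726_s_at and -0.76 on 217021_at, which lay under the level filter. On all 4 probe sets both samples of the calorie restriction animal lay below both of the ad libitum animal. The same held for 17.2% of all probe sets past the level filter. Probe sets 209366_x_at and 207843_x_at are of the less specific kind of design, whose probes can match other transcripts.

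**Figure D1:**
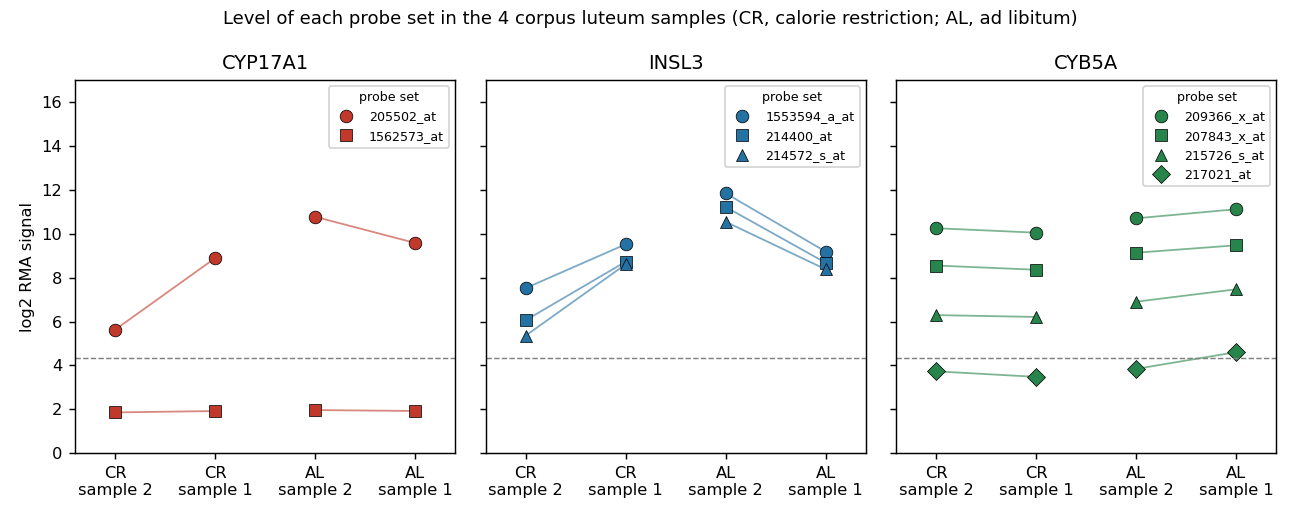
Log2 RMA signal (y axis) of every probe set of CYP17A1, INSL3 and CYB5A in the 4 samples (x axis), with lines joining the samples of 1 animal and a dashed line at the level filter of 4.34. The CYP17A1 probe set 205502_at and the 3 INSL3 probe sets are lowest in the calorie restriction animal's sample 2 and highest in sample 2 of the ad libitum animal. The values of each single CYB5A probe set span 1.07 to 1.26 over the 4 samples.

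In all, 7 of the 9 probe sets passed the level filter, and 1562573_at and 217021_at did not. Of the 9, 4 were 2-fold lower in the calorie restriction animal, all 4 of them also 2-fold higher in the ad libitum animal. Over all probe sets past the filter 0.608% were 2-fold lower and 0.385% 2-fold higher in the calorie restriction animal. In the ad libitum animal 2.14% were 2-fold higher and 5.92% lower, and 0.161% were lower in the calorie restriction and higher in the ad libitum animal. Since the genes were chosen on these changes, the counts describe the choice.

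**Figure D2:**
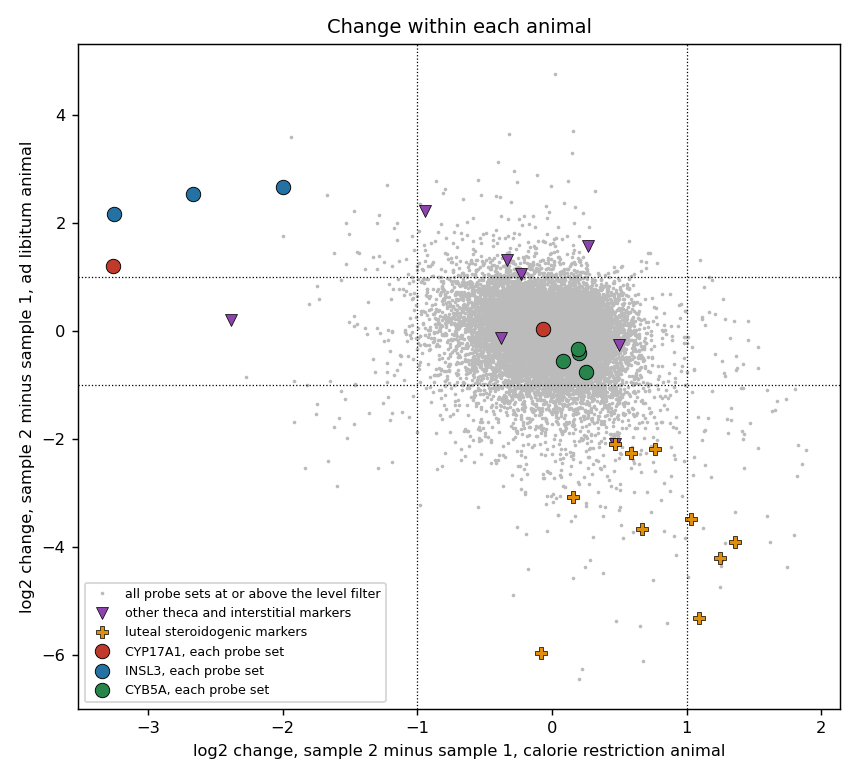
Log2 change, sample 2 minus sample 1, in the calorie restriction animal (x axis) against that in the ad libitum animal (y axis) for 20546 probe sets at or above the level filter (grey), the 9 probe sets of the 3 genes, and the brightest probe set of each marker of theca and interstitial or of luteal steroidogenic cells. Dotted lines mark 2-fold. CYP17A1 and INSL3 lie at the upper left, CYB5A near the centre, and the luteal markers at the bottom, 9 of 10 to the right of 0. LHCGR is in both marker lists.

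No other measured gene of androgen synthesis was 2-fold apart in the direction of CYP17A1 in either animal. Of 17 listed genes 16 were measured, by the brightest probe set of each. In the calorie restriction animal 2 were higher and none lower, with a median of 0.08, where 0.349% of all genes were higher and 0.45% lower. In the ad libitum animal none was higher and 5 were lower, with a median of -0.53, where 1.96% of all genes were higher and 3.83% lower. The medians over all genes were 0.0028 and 0.017 in the calorie restriction and ad libitum animals. In 9 of the 16 genes the change was positive in the calorie restriction and negative in the ad libitum animal, the reverse of CYP17A1, as in 5068 of all 19775 genes. The pair of signs of CYP17A1, found in 5440 of all genes, was that of 2, HSD17B1 (-0.50 in the calorie restriction and 0.99 in the ad libitum animal) and HSD17B3.

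Steps ahead of CYP17A1 illustrate this. STAR, which delivers cholesterol to the inner mitochondrial membrane, read 11.27 in sample 2 and 10.24 in sample 1 of the calorie restriction animal, and 9.002 and 12.49 in sample 2 and sample 1 of the ad libitum animal. CYP11A1, which cuts the cholesterol side chain, differed by 0.77 in the calorie restriction and -2.19 in the ad libitum animal, and its electron donor FDX1 by 0.59 and -2.25. HSD3B2, which turns pregnenolone into progesterone, read 8.47 and 7.11 in samples 2 and 1 of the calorie restriction animal and 6.06 and 9.97 in those of the ad libitum animal. Its probes may also read the near-identical HSD3B1, whose own probe set was under the level filter. STAR and HSD3B2 were thus highest in the sample, number 1 of the ad libitum animal, that was not the highest for CYP17A1.

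The electron donors and partners of CYP17A1 were under 2-fold in both animals. POR, the reductase that passes electrons to microsomal P450 enzymes, differed by 0.06 in the calorie restriction and 0.21 in the ad libitum animal. CYB5B, the form of cytochrome b5 on the outer mitochondrial membrane, differed by 0.08 and -0.53, and CYB5R3, a reductase of cytochrome b5, by -0.27 and -0.40. Over the wider list of cytochrome b5 reductases and enzymes that take electrons from it, none of 11 measured genes was 2-fold apart in the calorie restriction animal (median 0.07). The sterol enzyme MSMO1, at -1.20, was the 1 gene lower in the ad libitum animal (median -0.34), where 3.83% of all genes were lower. The shares of all genes in the calorie restriction animal were 0.349% higher and 0.45% lower.

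Downstream, CYP19A1, the aromatase that turns androgens into estrogens, read 9.918 in sample 2 and 10.0015 in sample 1 of the calorie restriction animal, and 4.41 and 10.38 in sample 2 and sample 1 of the ad libitum animal. It was thus near level in 3 samples and low in the one in which CYP17A1 was highest. Averaged over its 7 probe sets CYP19A1 changed by -0.11 in the calorie restriction and -1.43 in the ad libitum animal. Among the genes that reduce or conjugate androgens, HSD17B3 (-0.31 and 0.05), AKR1C3 (0.08 and -0.52) and SULT2A1 (0.35 and -0.63) lay under the level filter, and SRD5A1 (-0.01 and -0.11), PAPSS1 (-0.16 and -0.37) and PAPSS2 (0.26 and -0.98) were under 2-fold in the calorie restriction and ad libitum animals.

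**Figure D3:**
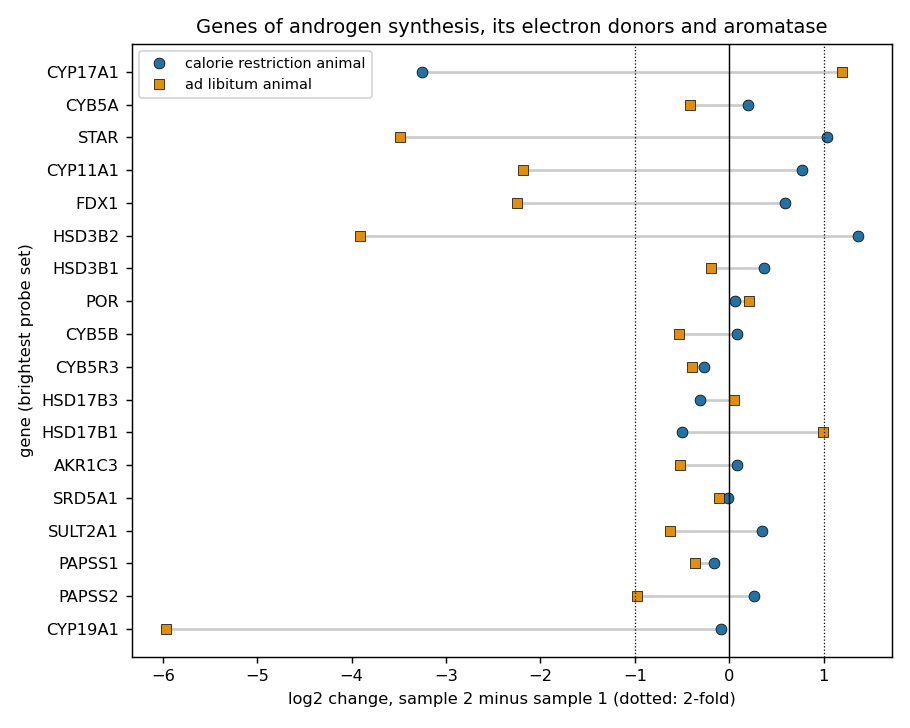
Log2 change, sample 2 minus sample 1 (x axis), of CYP17A1, CYB5A and the 16 other measured genes of androgen synthesis (y axis, brightest probe set) in the calorie restriction animal (circles) and the ad libitum animal (squares). Grey bars join the animals and dotted lines mark 2-fold. CYP17A1 alone among the 18 has a change past 2-fold to the left in the calorie restriction animal and to the right in the ad libitum animal.

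Of 19 listed genes known to act on CYP17A1 expression, 16 were measured, all transcription factors or co-regulators except DENND1A, a trafficking protein linked to theca androgen output. In the calorie restriction animal NR4A2 (-1.62) was the 1 gene that was lower, none was higher and the median was -0.24. Under ad libitum feeding NR5A2 (-3.07), NR4A3 (-2.39), NR4A2 (-1.79) and GATA6 (-1.01) made up the 4 that were lower, none was higher and the median was -0.09. The count was 3 with cyclic loess and with averaged probe sets, where GATA6 came to -0.41 and NR5A2 to -1.82. Over all genes 0.45% were lower in the calorie restriction and 3.83% in the ad libitum animal, and 0.349% and 1.96% were higher. NR5A1, or steroidogenic factor, the nuclear receptor held to be the main activator of the gene, lay under the level filter with 4.22 and 4.23 in samples 2 and 1 of the calorie restriction animal and 4.02 and 4.67 in those of the ad libitum animal. The signs of CYP17A1 were found in 7 of the 16, DENND1A among them, and the reverse in 2, against the 5440 and 5068 of 19775 genes above. GATA4, a zinc finger factor, was one of the 7, at -0.41 in the calorie restriction and 0.59 in the ad libitum animal, and none of the 7 was 2-fold apart in either animal.

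Among 15 measured genes of hormones and receptors that act on theca androgen output, 1 was higher in the calorie restriction animal, INHA at 1.10, and none lower (median -0.08). In the ad libitum animal 2 were higher and 6 lower (median -0.20). Among all genes the shares higher and lower were 0.349% and 0.45% in the calorie restriction and 1.96% and 3.83% in the ad libitum animal. LHCGR, the receptor for luteinising hormone, which drives CYP17A1 in theca cells, read 11.37 and 10.90 in samples 2 and 1 of the calorie restriction animal and 9.32 and 11.42 in those of the ad libitum animal. INHA, the inhibin subunit that enhances theca androgen output, differed by -5.32 in the ad libitum animal, and INHBA, an activin subunit, by -3.42. The lipoprotein receptor SCARB1 differed by -3.68 there (-1.81 with averaged probe sets). FST, the activin-binding follistatin, was higher there at 2.29, as was INHBB at 1.21, with FST at 0.17 and INHBB at -0.51 in the calorie restriction animal. The insulin receptor INSR (-0.24 and -0.02) and IGF1R (-0.08 and 0.09) were under 2-fold in the calorie restriction and ad libitum animals.

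Hedgehog signals from granulosa cells and oocyte act on theca cells through the receptor PTCH1 and the GLI factors. Of 8 measured hedgehog genes, none was 2-fold apart in the calorie restriction animal (median 0.05) and 4 were higher in the ad libitum animal, as were 1.96% of all genes (median 1.16, or 0.70 when the probe sets of a gene were averaged). The ligand IHH differed by 0.12 in the calorie restriction and 2.78 in the ad libitum animal, and the target gene GLI1 by 0.27 and 1.57. HHIP, a binding protein that is itself a target, differed by -0.98 and 2.34, and PTCH1 by -0.94 and 2.22, so both had the signs of INSL3 but lay just under 2-fold in the calorie restriction animal. Averaged over its probe sets PTCH1 came to -0.12 and 0.65, and HHIP to -0.24 and 1.86.

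Of the measured members of its hormone family and their receptors, INSL3 alone lay above the level filter. All 9 other measured relatives and receptors lay under it, and none was 2-fold apart in either animal, with medians of 0.04 in the calorie restriction and 0.009 in the ad libitum animal. The INSL3 receptor RXFP2 read 2.43 and 2.11 in samples 2 and 1 of the calorie restriction animal and 2.42 and 2.16 in those of the ad libitum animal. The luteal hormone RLN2, or relaxin, read 4.39 and 4.30 in samples 2 and 1 of the calorie restriction animal and 2.59 and 3.47 in those of the ad libitum animal.

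Other theca and interstitial markers changed in mixed directions, and PTCH1, GLI1 and LHCGR among them also stand in lists above. Of 9 listed 8 were measured, with a mean log2 level of 7.26 and 7.64 in samples 2 and 1 of the calorie restriction animal and 8.30 and 7.82 in those of the ad libitum animal. In the calorie restriction animal 1 was lower, the theca surface peptidase ANPEP at -2.38 (-0.65 with the mean of its 3 probe sets), and none higher. The median there was -0.28, where 0.349% of all genes were higher and 0.45% lower. In the ad libitum animal 4 were higher, PTCH1, GLI1, the matrix protein OGN (1.31) and the transcription factor TCF21 (1.06), and 1 lower, LHCGR (-2.10), with a median of 0.63, where 1.96% of all genes were higher and 3.83% lower. With averaged probe sets TCF21 came to 0.58 and PTCH1 to 0.65, and the number 2-fold apart was then 0 in the calorie restriction and 3 in the ad libitum animal. The signs of CYP17A1 were found in 4 of the 8, ANPEP (0.20 in the ad libitum animal, but -0.03 with averaged probe sets), PTCH1, OGN (-0.34 in the calorie restriction animal) and TCF21 (-0.23), and the reverse in LHCGR and PDGFRA, where 5440 and 5068 of 19775 genes had these pairs. In RNA of whole tissue, fewer theca-derived cells and less RNA of a gene per cell cannot be told apart.

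Markers of other cells had the following values, and their part in the changes of CYP17A1 and INSL3 was not tested. Of all genes 0.349% were higher and 0.45% lower in the calorie restriction animal, and 1.96% and 3.83% in the ad libitum animal. Luteal steroidogenic markers averaged 10.20 and 9.47 in samples 2 and 1 of the calorie restriction animal and 7.46 and 11.08 in those of the ad libitum animal, with 4 of 10 higher in the calorie restriction animal (median 0.72) and 10 of 10 lower in the ad libitum animal (median -3.58). In sample 2 of the ad libitum animal, which read below sample 1 for each of them, they ran from 4.41 for CYP19A1 to 10.77 for FDX1. With averaged probe sets the luteal median in the ad libitum animal was -2.15, and 10 of 10 were still 2-fold apart. Granulosa markers averaged 8.61 and 8.47 in samples 2 and 1 of the calorie restriction animal, with 1 of 9 higher and none lower, and 6.83 and 8.72 in those of the ad libitum animal, with 1 higher (FSHR, 1.25) and 5 lower. Macrophage markers averaged 7.62 and 7.89 in the calorie restriction animal, with 1 of 9 lower, and 8.07 and 7.60 in the ad libitum animal, with 3 higher, CHIT1 (3.58), AIF1 (1.23) and FCER1G (1.05), and 1 lower, the scavenger receptor CD163 (-1.28). The signs of INSL3 were found in 4 of the 9, where 5440 of all 19775 genes had them. The 4 were the chitinase CHIT1 (-1.94 in the calorie restriction animal), CSF1R (-0.22 and 0.35), CD14 (-0.33 and 0.14) and C1QB (-0.29 and 0.27). CHIT1 alone of them reached 2-fold.

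Oocyte markers averaged 4.06 and 4.13 in samples 2 and 1 of the calorie restriction animal, with none of 10 at 2-fold, and 5.46 and 4.197 in those of the ad libitum animal, with 4 higher, ZAR1 (3.70), ZP4 (3.64), FIGLA (1.85, under the level filter) and OOEP (1.26). Fibroblast and stroma markers averaged 9.11 and 8.87 in the calorie restriction animal and 9.05 and 9.32 in the ad libitum animal, with 1 of 10 higher in the calorie restriction animal and 1 higher and 1 lower in the ad libitum animal. Smooth muscle and pericyte markers averaged 8.59 and 8.09 in the calorie restriction animal, with 3 of 10 higher, and 8.99 and 8.81 in the ad libitum animal, with 1 higher and 1 lower. Endothelial markers averaged 7.68 and 8.01 in the calorie restriction animal, with 1 of 10 lower (TEK, -1.08), and 6.49997 and 7.53 in the ad libitum animal, with 5 lower, led by KDR (-1.80) and CDH5 (-1.78). Surface epithelium averaged 5.22 and 4.82 in the calorie restriction animal, with 1 of 7 higher (KRT18, 1.30), and 4.86 and 5.42 in the ad libitum animal, with 2 lower. With averaged probe sets none of the fibroblast markers was 2-fold apart in either animal. The counts of genes 2-fold apart in the calorie restriction and ad libitum animals were then 0 and 1 for smooth muscle, 0 and 3 for endothelium and 1 and 2 for macrophages. Markers of the adrenal cortex, which also expresses CYP17A1 and CYB5A, included CYP11B1, MC2R and CCN3, under the level filter, and MRAP and CYP11B2, above it. CYP11B2, the aldosterone synthase, read 6.03 and 5.55 in samples 2 and 1 of the calorie restriction animal and 5.98 and 5.76 in those of the ad libitum animal. In that list 1 of 5 was higher in the calorie restriction animal and 1 lower in the ad libitum animal, in both cases MRAP (1.25 and -4.75, or 0.81 and -2.79 with averaged probe sets), and the list averaged 4.99 and 4.55 in the calorie restriction animal and 4.11 and 5.00 in the ad libitum animal.

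The difference between the animals depended on the sample number for CYP17A1 and INSL3 and less so for CYB5A. Between the samples numbered 2, calorie restriction minus ad libitum was -5.13 for CYP17A1 (35.1-fold lower) and -5.18 to -4.31 over the INSL3 probe sets (19.9-fold to 36.4-fold lower). Between the samples numbered 1 it was -0.68 for CYP17A1 and 0.05 to 0.34 for INSL3. For CYB5A it was -0.61 to -0.11 between the samples numbered 2 and -1.26 to -1.07 between those numbered 1. These differences each rest on 1 array a side and carry no test.

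**Figure D4:**
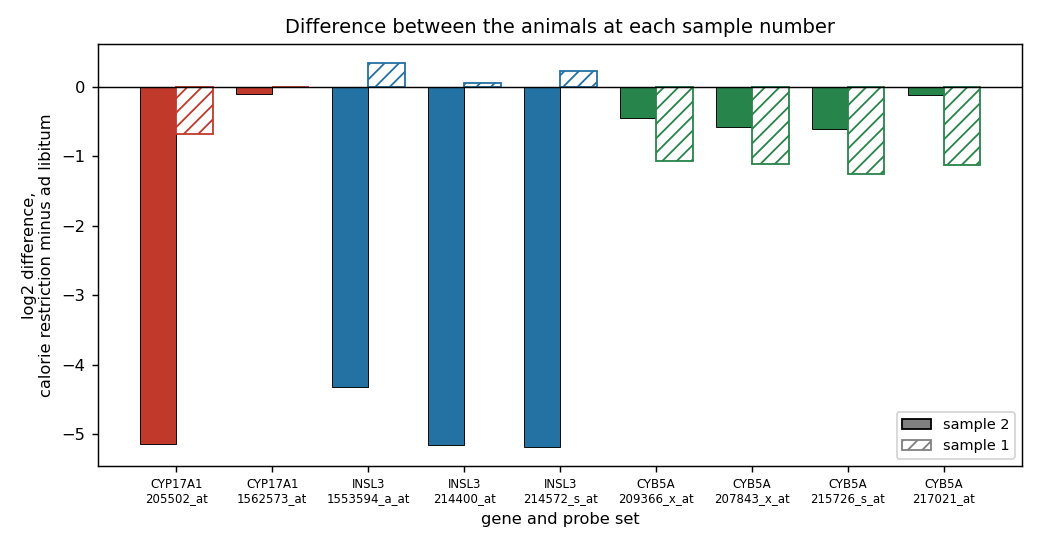
Log2 difference, calorie restriction minus ad libitum (y axis), of each probe set (x axis) between the samples numbered 2 (filled bars) and between those numbered 1 (hatched bars). The 205502_at probe set of CYP17A1 and all 3 of INSL3 lie under -4 at number 2 and between -0.68 and 0.34 at number 1, whereas all 4 CYB5A probe sets are further below 0 at number 1.

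The mean difference between the animals was fitted with limma over the 20546 probe sets past the filter, with 2 samples of 1 animal on each side. The SE of this fit comes from the differences between samples 1 and 2, drawn by limma towards a trend over all fitted probe sets. The ± values are thus moderated and are not each probe set's own spread. Since the differences between samples 1 and 2 were known when the genes were chosen, no p is given for the 3 genes. Their not being called says nothing of their difference. For other probe sets p measures only the spread between samples of these 2 animals. CYP17A1 averaged 7.26 in the calorie restriction and 10.17 in the ad libitum animal, a difference of -2.91 ± 1.12 (SE). INSL3 differed by -1.99 ± 1.07 on 1553594_a_at, -2.55 ± 1.18 on 214400_at and -2.48 ± 1.25 on 214572_s_at, and on each of them the animals overlapped. CYB5A differed by -0.76 ± 0.24 on 209366_x_at, -0.85 ± 0.23 on 207843_x_at and -0.93 ± 0.25 on 215726_s_at. By limma no probe set was called in either direction at an adjusted p under 0.05, 0% of those tested, and 1081 had an unadjusted p under 0.05.

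Single samples set much of this. Without the calorie restriction animal's sample 2 the CYP17A1 difference was -1.28 and those of INSL3 were -1.22 to -0.85, and without the ad libitum animal's sample 2 they were -2.31 for CYP17A1 and -1.39 to -0.66 for INSL3. Without the calorie restriction animal's sample 1 the differences were -4.54 for CYP17A1 and -4.10 to -2.99 for INSL3, and without the ad libitum animal's sample 1 they were -3.50 and -3.82 to -3.32. For CYB5A all 4 such fits lay between -1.22 and -0.55. Of all probe sets past the filter, 17.2% had both calorie restriction samples below both ad libitum samples, as did the CYP17A1 probe set 205502_at and the 3 CYB5A probe sets that passed.

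The genes with the pattern most like each of the 3 were found among 12144 others past the filter, by the distance between log2 values over the 4 samples after each gene's mean was taken off. INSL3 was the third nearest to CYP17A1 at a distance of 1.65, after the neuropeptide galanin, GAL (1.31), and the gelatinase MMP9 (1.47), and ahead of the Wnt antagonist SFRP2 (1.77), the clock repressor BHLHE41 (1.81) and BOC, a hedgehog co-receptor (1.82). CYP17A1 ranked 60 in distance from INSL3. As both genes were chosen on their changes in these same samples, their ranks for each other describe the choice. GAL had changes of -1.80 in the calorie restriction and 0.49 in the ad libitum animal, and SFRP2 of -0.88 and 1.28.

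Nearest to INSL3 was CHRDL1, a secreted BMP antagonist, at 0.31, with 3.72 and 5.39 in samples 2 and 1 of the calorie restriction animal and 7.61 and 5.10 in those of the ad libitum animal. MMP9 (0.74), HHIP (0.75), the melanocortin receptor accessory protein MRAP2 (0.90), the B cell adaptor BLNK (1.06) and the phospholipase PLA2G1B (1.08) followed. Of these 6, 5 were also among the nearest when probe sets were averaged, against 1 of the 6 for CYP17A1. CYB5A ranked 1338 in distance from CYP17A1 (3.45) and 3786 from INSL3 (2.94). In distance from CYB5A the gene CYP17A1 ranked 12111 and INSL3 12074. The distance grows with the span of a gene's values, which was 5.13 for CYP17A1 and 4.31 for INSL3. Those ranks thus follow in large part from the changes on which the genes were chosen. The span of the CYB5A values, 1.07, was at least that of 87.3% of genes. The genes nearest to it were FBXO5 (0.08), CDC25B (0.11), LRATD2 (0.11), NNMT (0.13), NCAPG2 (0.15) and CCNE2 (0.15), of which FBXO5, CDC25B, NCAPG2 and CCNE2 act in cell division. Of these 6, 1 was among the nearest when probe sets were averaged.

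**Figure D5:**
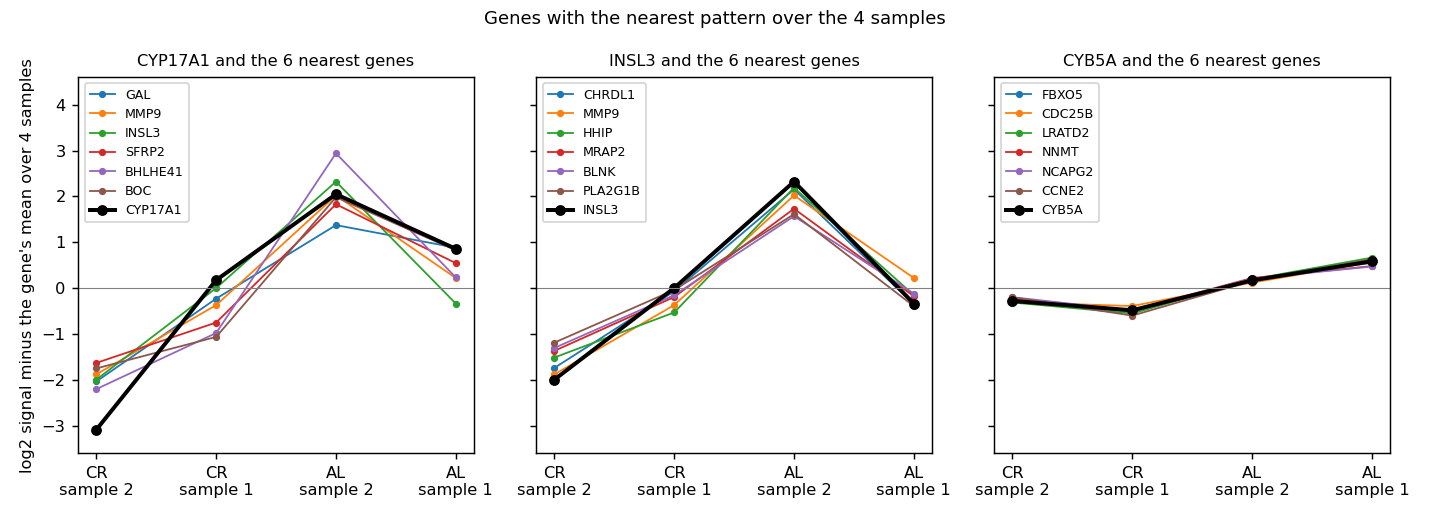
Log2 signal minus the gene's mean over the 4 samples (y axis) by sample (x axis) for CYP17A1, INSL3 and CYB5A (black) and the 6 genes nearest to each (colours). The genes nearest to CYP17A1 and INSL3 are lowest in the calorie restriction animal's sample 2 and highest in sample 2 of the ad libitum animal, and those nearest to CYB5A are highest in its sample 1.

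The 3 genes lie on 3 different chromosomes of the vervet assembly mChlSab1.0.hap1. CYP17A1 lies between WBP1L, which differed by -0.19 in the calorie restriction and -0.03 in the ad libitum animal, and BORCS7 (0.09 and -0.18). INSL3 lies between the kinase gene JAK3 (-0.04 and -0.21) and B3GNT3 (0.02 and 0.45). Of the 10 measured protein-coding genes within 2 places of the 3 genes, none was 2-fold apart in either animal. Of all genes 0.349% were higher and 0.45% lower in the calorie restriction animal, and 1.96% and 3.83% in the ad libitum animal. None among 10 is near those shares and says little of these places. The widest change was that of FBXO15, beside CYB5A, at -0.36 and 0.68.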

How the data were processed

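Labelled cRNA was made from total RNA of frozen corpus luteum, per the labels' protocols, and each sample has 1 array. The deposited table holds a log2 signal for each probe set, which the authors made with Affymetrix Power Tools and RMA, per the submitters' processing notes (versions not given in the sources used here). Detection of single probes was not analysed, and the number of arrays (4) limits precision. Of 54675 probe sets, 62 controls, 1801 with several symbols and 11721 with none were left out.

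The genes, the lists and the tests were chosen with earlier results of these data known. A gene was represented by its brightest probe set, and 2-fold was the threshold within an animal. The difference between animals was fitted with limma 3.58.1 in R 4.3.3 (lmFit, eBayes with a trend, two-sided, Benjamini-Hochberg adjustment over 20546 probe sets, adjusted p under 0.05), leaving 2 residual degrees of freedom. On simulated data with independent noise that fit recovered 2 of 67 probe sets shifted by a log2 value of 1, 59 of 67 shifted by 2 and 64 of 66 shifted by 3, and made 2 false calls among 20346. The simulated noise had the same spread in all 4 samples, whereas on these arrays sample 2 of the ad libitum animal lay far from the others. Those counts thus do not give the power of the fit on these arrays. The 6 pathway lists and 10 marker lists are described by counts and medians, and up to 6 of their genes past 2-fold were named by size, with others named for their role. Placeholder symbols were passed over among the 6 nearest genes. Alternatives were other probe set summaries, normalisations, thresholds and filters, no trend, a block and leaving out each sample. The planned promoter motif search was not run, as no sequence table was at hand.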

Additional observations from a re-analysis of the deposited data

Results flagged for a closer look

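For some features the change was 2-fold or more in one direction in the calorie restriction animal and 2-fold or more in the other direction in the ad libitum animal. With 1 array for each sample the difference between the animals' changes was not tested. Calorie restriction change minus ad libitum change was -4.45 for the CYP17A1 probe set 205502_at, and for INSL3 it was -4.65 on 1553594_a_at, -5.21 on 214400_at and -5.42 on 214572_s_at. Of other genes named or listed, CHIT1 (-5.52), CHRDL1 (-4.18), BHLHE41 (-3.93), MMP9 (-3.31), PLA2G1B (-3.15), MRAP2 (-3.08) and BLNK (-2.83) had the same sign. INHA (6.42), MRAP (5.999), HSD11B1 (5.45), HSD3B2 (5.27), STAR (4.52), MFAP5 (3.20) and KRT18 (2.93) had the opposite one. No CYB5A probe set was among these features. As the 3 genes were chosen with these changes known, their standing here describes the choice. The other genes stand here by their brightest probe set. With averaged probe sets BHLHE41 changed by -0.39 in the calorie restriction and 1.10 in the ad libitum animal. MRAP then changed by 0.81 and -2.79, and MFAP5 by 0.49 and -0.81, so none of these genes was past 2-fold in both animals.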

How the results depend on the processing

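No change of the 3 genes within an animal reversed under any alternative run. With the mean or the median of its 2 probe sets CYP17A1 came to -1.66 in the calorie restriction animal and to 0.62, under 2-fold, in the ad libitum animal, since 1562573_at lay at the floor. At a threshold of 3-fold the ad libitum change of 1.19 was no longer past it. INSL3 came to -2.64 with the mean and -2.67 with the median of its probe sets in the calorie restriction animal. Under cyclic loess, repeated quantile normalisation and median centring each change kept its direction and its side of 2-fold, and that of CYB5A in the ad libitum animal lay between -0.46 and -0.26. Between animals, with sample number as a replicate block, limma called 0 probe sets and the CYP17A1 difference stayed -2.91. Deviations of same-numbered samples had a Pearson r of -0.21 over probe sets, so a block with crossed numbers, chosen after seeing the data, was also fitted and called 0. Leaving out 1 sample gave between 0 and 1143 calls, 1143 without the ad libitum animal's sample 1 and 5 without its sample 2. Over all alternatives the difference between animals lay between -4.54 and -1.28 for CYP17A1 on 205502_at, -3.32 and -0.66 for INSL3 on 1553594_a_at and -0.97 and -0.55 for CYB5A on 209366_x_at. For the lists, 190 counts and medians under other settings kept their side of 2-fold or came within 1.5 times, 16 grew past that, 12 shrank and 2 medians moved. Among the 190 were medians near 0 that changed sign. That of the CYP17A1 gene regulators in the ad libitum animal went from -0.09 to 0.14 with members past the level filter only. The cause was not tested.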
